A study of Mus musculus with 4 samples.

Results

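Integrins, adhesion molecules and homing receptors were compared between LT-HSC and ST-HSC, neighbouring stages of blood stem cells sorted from mouse bone marrow. The set holds 39 genes, chosen by name for their function but with earlier results of these data known. They include 16 integrin chains, 3 adaptors that switch integrins on or tie them to actin, and 6 homing receptors and ligands. The others are 3 cadherins, 9 adhesion molecules of the immunoglobulin family and 2 tetraspanins. All 39 had a probe set annotated to that gene alone, among 18193 genes that did. For each gene the brightest such probe set over the 4 arrays was used. Of the 39 genes 31 were bright enough to be tested and 8 were not.

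LT-HSC, which rebuild the blood for the long term, were sorted as Lin-, cKit+, Sca1+, CD34- and CD135-, and ST-HSC, which do so for a shorter time, by the same gate but CD34+. Both groups came from C57BL/6 mice with a floxed allele and without the Mx-Cre transgene, so the allele was left in place, and every mouse had been given poly(I:C), a mimic of viral RNA that triggers an interferon response, 7 times. Mice were 7.5 weeks old, and 4 weeks past the last injection, for LT-HSC replicates 1 and 2 and likewise for ST-HSC replicate 2. For ST-HSC replicate 3 they were 8.5 weeks old and 3 weeks past it. Nothing given says that the pair of LT-HSC arrays stands for separate mice, so p-values measure only the spread between these arrays, which may be technical. RNA of each sample was amplified in a double round and hybridised to 1 Affymetrix array, and the number of arrays limits the precision.

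An integrin is a pair of an alpha and a beta chain that spans the membrane. Its resting form binds weakly, and signals inside the cell switch it on when talin and a kindlin attach to the tail of the beta chain. Blood stem cells are held in the marrow by integrins that bind Vcam1 and fibronectin and by the chemokine receptor Cxcr4, and they return to it after transplantation with the help of selectin ligands, Cd44 and the same integrins. Lymphocytes and myeloid cells use a partly different set, led by the beta-2 integrins and by chemokine receptors that direct them to tissues.

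Both chains of LFA-1, the leukocyte integrin of Itgal and Itgb2, were higher in LT-HSC, together with the chemokine receptor Ccr9, the neural cadherin Cdh2 and the adhesion molecule Alcam. The kindlin of blood cells, Fermt3, and the junctional molecule F11r were lower. In all, 5 of 31 tested members were higher and 2 were lower by limma with Benjamini-Hochberg adjustment over 27022 probe sets, at an adjusted p under 0.05. That is 16.1% and 6.45% of the tested members, beside a background of 7.92% of 12832 tested genes higher and 6.4% lower. Taken in either direction, 22.6% of the members passed, beside 14.3% of all genes. Since the members were chosen with earlier results of these data known, these shares only describe the list. The median difference (LT-HSC minus ST-HSC) of the members was 0.15 on the log2(intensity + 16) scale, beside -0.08 for all tested genes. The pseudocount of 16 understates the change of dim genes, and all differences and folds below are on that scale after quantile normalization, whereas intensities are the deposited values on a linear scale.

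**Figure D1:**
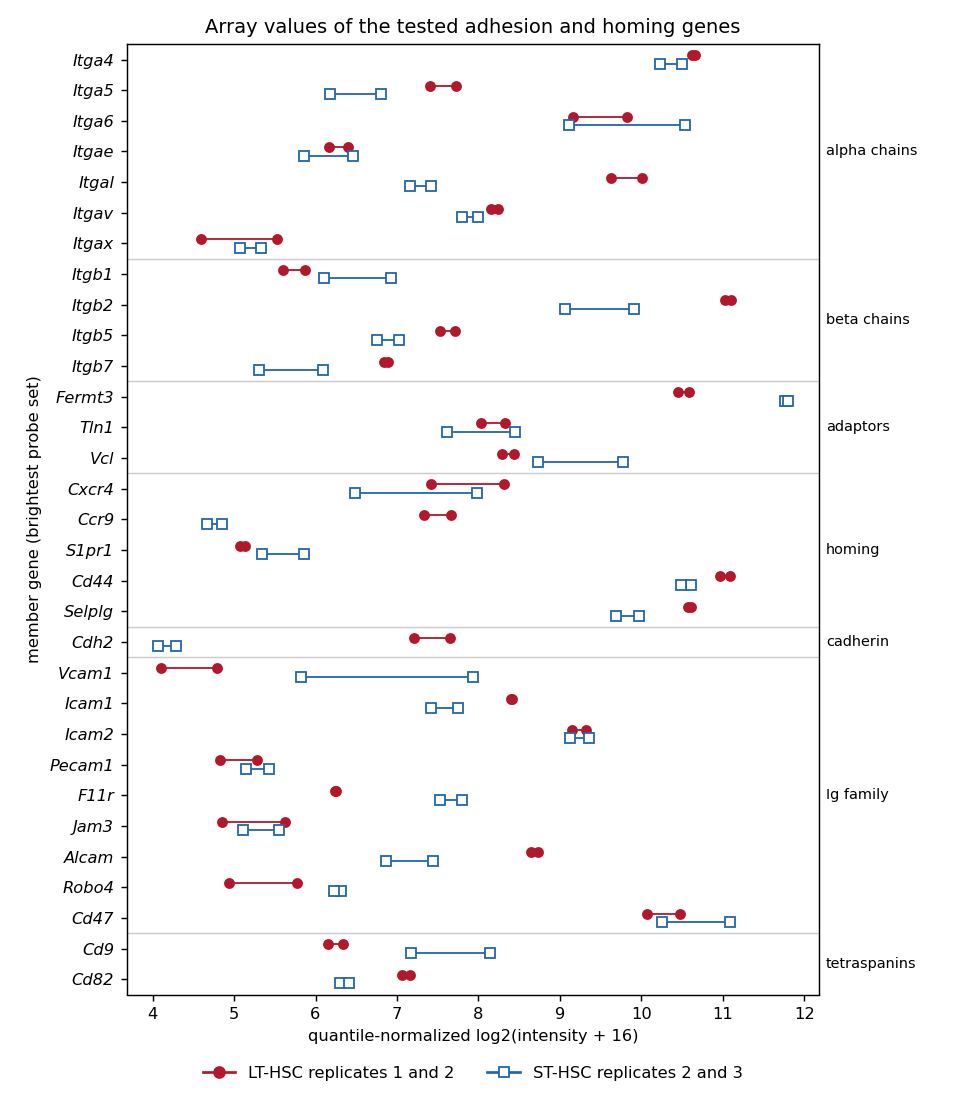
Quantile-normalized log2(intensity + 16) of the 31 tested members (x axis), by gene and role (y axis), with a filled circle for each LT-HSC array and an open square for each ST-HSC array. The pairs lie apart for Itgal, Itgb2, Fermt3, Ccr9, Cdh2, F11r and Alcam, while those of Itga6, Cxcr4, Tln1 and Icam2 overlap.

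Arrays of the groups did not overlap for 22 of the 31 tested members (71%), of which 14 were higher in LT-HSC and 8 lower. In all tested genes the share was 64.3%, so this count is near the background. Of these 22 members 7 passed the test, and the plot of array values shows the others.

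Among markers of other marrow cells, those of B and plasma cells moved with the groups. The T and NK cell, granulocyte and endothelial lists did not do so as a whole. In LT-HSC 9 of 10 tested B and plasma cell markers were higher, and Pax5 did not pass. Their summed intensity was 45222 and 45928 on the LT-HSC arrays, against 1907 and 3108 on the ST-HSC arrays. Of 6 tested T and NK cell markers 3 were higher and 1 was lower, with sums of 516 and 1238 in LT-HSC, compared with 1488 and 1622 in ST-HSC. Most of the ST-HSC sums was Nkg7, the lower one, and without it, a choice made after its values were seen, the sums were 379 and 925 in LT-HSC, compared with 211 and 218 in ST-HSC. None of 8 tested markers of maturing granulocytes passed by limma, and 2 had an unadjusted p under 0.05. Of all 12832 tested genes, 4251 met that unadjusted cut. The granulocyte markers summed to 3859 and 495 in LT-HSC, compared with 3441 and 48859 in ST-HSC, where replicate 3 stood apart. No marker of these 3 lists read 0 on any array. None of 6 tested endothelial and stromal markers passed by limma, 2 had an unadjusted p under 0.05, and their sums were 205 and 240 in LT-HSC, compared with 336 and 388 in ST-HSC. Cd34, on which the gates were split, read 18.3 and 23.5 in LT-HSC, compared with 841 and 1142 in ST-HSC, in the direction of the labels. The other gate genes differed as well, although both gates were cKit+ and CD135-: Kit was lower in LT-HSC, at 397 and 382 against 684 and 907 in ST-HSC (adjusted p = 0.0497), and Flt3, which encodes CD135, read 62.3 and 53.4 in LT-HSC, compared with 258 and 134 in ST-HSC, and did not pass (adjusted p = 0.0633). In bulk RNA, fewer cells of a type and less RNA per cell cannot be told apart.

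Itgal encodes the alpha chain of LFA-1, which binds Icam1 and Icam2 on other cells. It read 810 and 1042 in LT-HSC, compared with 144 and 154 in ST-HSC. Both LT-HSC arrays lay far above both ST-HSC arrays, and the difference was 2.52 (SE 0.29, a 5.74-fold higher level, adjusted p = 0.0042). A second probe set of Itgal read 123 and 134 in LT-HSC, compared with 16.8 and 24.8 in ST-HSC and passed as well (2.08, SE 0.31, adjusted p = 0.00998). Itgb2, the beta chain shared by LFA-1 and by the myeloid integrins of Itgam and Itgax, read 2326 and 2328 in LT-HSC, compared with 502 and 933 in ST-HSC. The LT-HSC arrays were nearly equal and above both ST-HSC arrays, which differed from each other, and Itgb2 was 2.98-fold higher (1.57, SE 0.30, adjusted p = 0.0231). Lymphocytes carry LFA-1, and the B and plasma cell markers given above are high on the same LT-HSC arrays. Their part in the LFA-1 result was not tested.

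The alpha partners of Itgb2 in myeloid cells were dim or did not pass. Itgam, the chain of Mac-1 on granulocytes and macrophages, was too dim to be tested, at 7.90 and 7.40 in LT-HSC, compared with 6.66 and 46.2 in ST-HSC. Its brightest reading was on ST-HSC replicate 3, the array with the high granulocyte sum, and the part of those cells in it was not tested. Itgax, the chain of dendritic cells, read 4.91 and 33.7 in LT-HSC, compared with 18.4 and 25.1 in ST-HSC, with overlapping groups (-0.14, 95% interval -1.08 to 0.80).

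Of 16 integrin chains 11 were tested, and Itgal and Itgb2 were the called ones, both higher. That is 18.2% of those tested, beside 14.3% of all tested genes in either direction and 7.92% higher. The integrins named for holding stem cells in the marrow gave smaller differences that did not pass. Itga4, the alpha chain of VLA-4 and a receptor for Vcam1, differed by 0.28 (95% interval -0.21 to 0.77, adjusted p = 0.397), and its 4 tested probe sets ran from -0.77 to 1.81, none of which passed (smallest adjusted p = 0.0664). Itgb1, the beta chain of VLA-4 and of most matrix receptors, read 25.4 and 46.7 in LT-HSC, compared with 60.2 and 103 in ST-HSC. Its difference of -0.78 (95% interval -1.67 to 0.12) did not pass (adjusted p = 0.215), nor did that of its second tested probe set (-1.22, adjusted p = 0.0823). Itga5, which pairs with Itgb1 as the main fibronectin receptor, differed by 1.08 (95% interval 0.25 to 1.91, adjusted p = 0.0919). A second tested set of Itga5 lay at 0.21 (adjusted p = 0.705). Itga6, the chain of laminin receptors, differed by -0.34 (95% interval -1.48 to 0.81, adjusted p = 0.676), and of the ST-HSC arrays replicate 2 lay far above replicate 3 (1321 and 544), so the pair was wide. On this probe set the direction of Itga6 turned with the array left out: it lay at -1.07 without ST-HSC replicate 3 and at 0.39 without ST-HSC replicate 2. A second tested set of Itga6 was also negative with all 4 arrays and did not pass (-1.12, 95% interval -1.82 to -0.41, adjusted p = 0.0547).

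Itgb7, which pairs with Itga4 or Itgae on gut-homing lymphocytes, lay at 1.17 (95% interval 0.30 to 2.04) and did not pass (adjusted p = 0.0837). Among the alternatives that kept all arrays, Itgb7 passed only in the fit on 1 averaged value per gene (adjusted p = 0.0433, range 0.0433 to 0.167). Itgb7 has 1 probe set, so its values did not change in that fit. The partner Itgae, whose product binds E-cadherin, lay at 0.12 (95% interval -0.69 to 0.93). Itgav and Itgb5, the chains of a vitronectin receptor, differed by 0.30 (95% interval -0.38 to 0.98) and 0.73 (adjusted p = 0.164). A second tested set of Itgav lay at 1.29 and did not pass (adjusted p = 0.0699). All 4 tested probe sets of Itgb5 were positive, between 0.47 and 1.18, and none passed (smallest adjusted p = 0.0967). Besides Itgam, the chains Itga1 and Itga2 (collagen receptors), Itga9 (a receptor for tenascin and Vcam1) and Itgb8 (which activates TGF-beta with Itgav) were too dim to be tested. The cadherins Cdh1 and Cdh5 and the chemokine receptor Ccr7 were also dim. These 8 genes read between 0.805 and 35.6 on the LT-HSC arrays, against 5.47 and 46.2 as lowest and highest readings on the ST-HSC arrays. The limit on the mean over the 4 arrays was 5.03 on the normalized log2 scale, an intensity of 16.7.

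**Figure D2:**
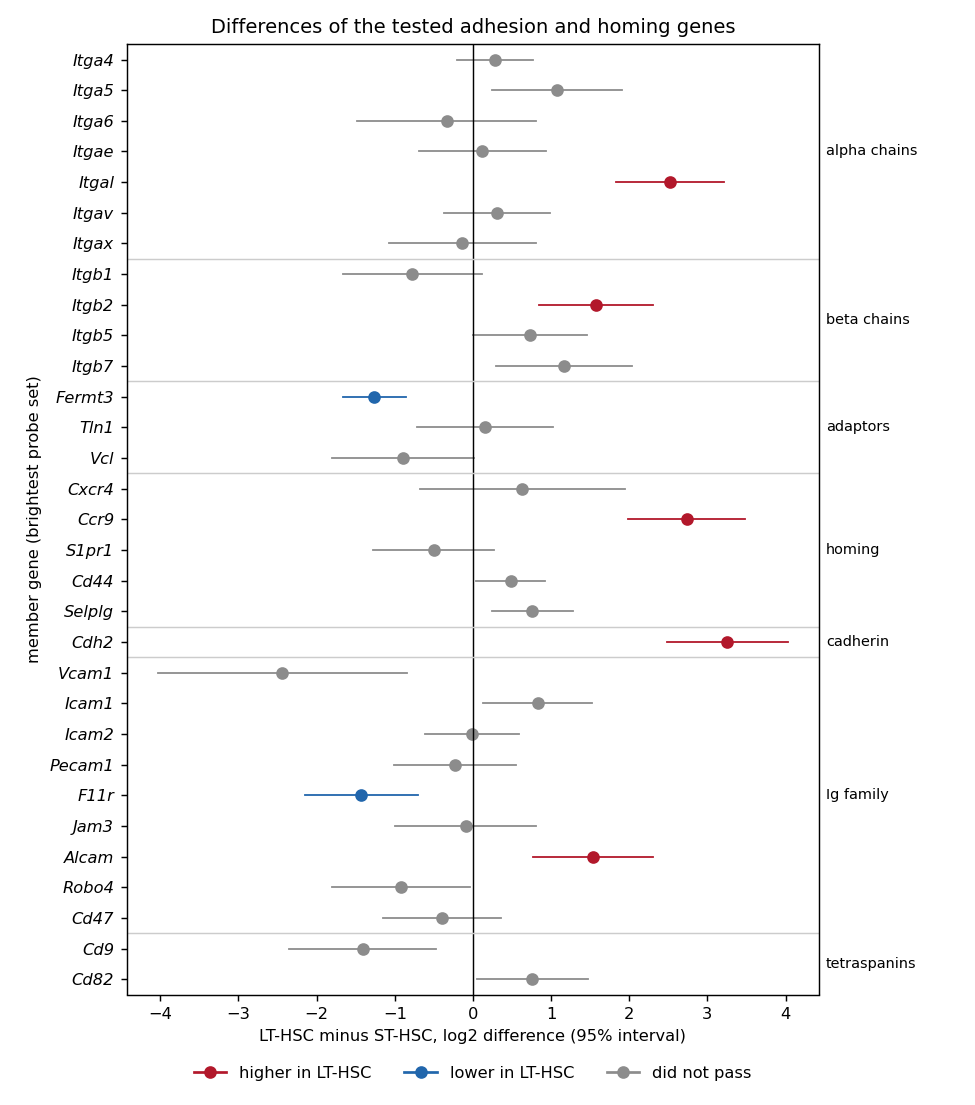
Log2 difference (LT-HSC minus ST-HSC, x axis) of each tested member (y axis, by role) with its 95% interval from limma; red passed as higher in LT-HSC, blue as lower and grey did not pass. The differences span -2.44 for Vcam1, which did not pass, to 3.26 for Cdh2.

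Of the 3 adaptors 1 was lower in LT-HSC (33.3%, beside 14.3% of all tested genes in either direction and 6.4% lower). Fermt3 encodes kindlin-3, which binds the tails of integrin beta chains in blood cells and without which leukocyte and platelet integrins stay inactive. It read 1646 and 1446 in LT-HSC, compared with 3100 and 3064 in ST-HSC. Each pair was tight and the groups were well apart, and the difference was -1.26 (SE 0.17, a 2.40-fold lower level, adjusted p = 0.00741). A second probe set of Fermt3 passed too, at 128 and 110 in LT-HSC, compared with 363 and 510 in ST-HSC (-1.64, SE 0.33, adjusted p = 0.0263), and the other 2 were negative without passing (-0.94 and -0.32). The kindlin transcript was lower on the arrays on which both LFA-1 chains were higher. With median centring of the arrays in place of quantile normalization Fermt3 did not pass (-0.89, adjusted p = 0.102), and its adjusted p ranged from 0.00741 to 0.102 over the alternatives that kept all arrays. Platelets are rich in kindlin-3, and of 7 tested platelet and megakaryocyte markers 1 was higher and 2 were lower in LT-HSC, with sums of 1235 and 1662 in LT-HSC, compared with 3324 and 1932 in ST-HSC. Their part in the Fermt3 result was not tested. Tln1 (talin, the other activator) differed by 0.15 (95% interval -0.72 to 1.02). Vcl (vinculin, which links talin to actin) differed by -0.89 (95% interval -1.80 to 0.02).

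The homing receptors and ligands gave 1 called gene of 5 tested, which was higher (20%, beside 14.3% of all tested genes in either direction and 7.92% higher). Ccr9, a chemokine receptor known for guiding T cells and IgA plasma cells to the gut, read 128 and 187 in LT-HSC, compared with 10.0 and 14.4 in ST-HSC. The ST-HSC readings lay below the limit for testing, and both LT-HSC readings were above them (2.73, SE 0.31, adjusted p = 0.00409). The size of the difference rests on the pseudocount: the log2 difference was 3.78 with a pseudocount of 1 and 1.60 with 64, both past the threshold. This probe set ends in _x_at, the manufacturer's mark for sets with some probes that also match other sequences. The second tested set of Ccr9 differed less and did not pass (37.5 and 61.4 in LT-HSC, compared with 17.8 and 28.9 in ST-HSC, 0.82, adjusted p = 0.141). Of the 5 probe sets of Ccr9 2 were tested and the others were too dim, so the call rests on 1 set. As for LFA-1, the part of lymphoid or plasma cells in the Ccr9 result was not tested.

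Cxcr4, the receptor that retains stem cells in the marrow through Cxcl12, differed by 0.63 and did not pass (95% interval -0.68 to 1.94, adjusted p = 0.483). Both pairs were wide, at 138 and 302 in LT-HSC, compared with 84.5 and 236 in ST-HSC, and they overlapped. Its direction rested on 1 array, since without ST-HSC replicate 3 it passed as higher in LT-HSC (1.37, adjusted p = 0.0158) and without ST-HSC replicate 2 it lay at -0.12 (adjusted p = 0.826). Cd44, the hyaluronan receptor, read 2221 and 2311 in LT-HSC, compared with 1395 and 1353 in ST-HSC on its brightest probe set, which did not pass (0.48, SE 0.19, adjusted p = 0.136). A further set at 1946 and 1674 in LT-HSC, compared with 735 and 611 in ST-HSC did (1.26, SE 0.24, adjusted p = 0.0214). So did a further, dim set (1.24, adjusted p = 0.0487), and with the probe sets averaged Cd44 passed (0.99, adjusted p = 0.029; range over the alternatives that kept all arrays 0.029 to 0.284). Selplg (PSGL-1, the main selectin ligand of blood cells) was close to the threshold at 0.76 (95% interval 0.24 to 1.27, adjusted p = 0.067). Selplg lay at 0.91 with ST-HSC replicate 2 left out and at 0.63 with ST-HSC replicate 3 left out. With all arrays kept, it passed with no normalization (0.91, adjusted p = 0.0339) and in the fit on 1 averaged value per gene (adjusted p = 0.0469). Selplg has 1 probe set, so its values did not change in the averaged fit. Its adjusted p ranged from 0.0339 to 0.133 over the alternatives that kept all arrays. S1pr1, the receptor with which cells leave tissues into blood and lymph, differed by -0.50 (95% interval -1.27 to 0.27).

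Cdh2 was the tested cadherin. It encodes N-cadherin, an adhesion molecule of neural and mesenchymal cells whose place in the stem cell niche has been debated. It read 115 and 186 in LT-HSC, compared with 3.92 and 1.0 in ST-HSC. The ST-HSC readings were close to 0, so the 9.55-fold difference (3.26, SE 0.32, adjusted p = 0.0024) rests on the pseudocount: with a pseudocount of 1 the log2 difference was 5.80 and with 64 it was 1.74, both past the threshold. A second probe set read 23.3 and 49.1 in LT-HSC, compared with 9.15 and 11.3 in ST-HSC and did not pass (1.07, adjusted p = 0.0724).

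Of 9 members of the immunoglobulin family Alcam was higher and F11r was lower in LT-HSC. That is 11.1% each, beside 7.92% of all tested genes higher and 6.4% lower. Alcam, which binds itself and Cd6 and is carried by stem cells, stroma and activated leukocytes, read 377 and 409 in LT-HSC, compared with 114 and 156 in ST-HSC (1.53, SE 0.32, 2.89-fold, adjusted p = 0.0294). The LT-HSC arrays exceeded the ST-HSC arrays on all 5 tested probe sets of Alcam, whose differences ran from 0.64 to 2.25, and a second of them passed (adjusted p = 0.0106). F11r encodes JAM-A, a junction molecule of endothelium, platelets and leukocytes that also binds LFA-1. It read 48.5 and 64.1 in LT-HSC, compared with 225 and 167 in ST-HSC, and was 2.69-fold lower with no overlap (-1.43, SE 0.30, adjusted p = 0.0302).

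Vcam1, the ligand of VLA-4, is known from stroma, endothelium and marrow macrophages. It read 7.74 and 1.30 in LT-HSC, compared with 45.8 and 228 in ST-HSC, the widest difference among members that did not pass (-2.44, SE 0.67, adjusted p = 0.0599). Most of it lay on ST-HSC replicate 3. Without ST-HSC replicate 2 the difference was -3.47. Vcam1 passed once arrays were median-centred (-2.50, adjusted p = 0.0115) and with no normalization (adjusted p = 0.0284). It also passed in the fit on 1 averaged value per gene (adjusted p = 0.04), though only 1 of its probe sets was tested and the values did not change. Over the alternatives that kept all arrays the adjusted p ran from 0.0115 to 0.105. Of 10 macrophage and dendritic cell markers with a probe set, Vcam1 and C1qa read highest on ST-HSC replicate 3 and the other 8 did not. C1qa was too dim to be tested. Of the 9 tested macrophage and dendritic cell markers, Vcam1 among them, 3 were higher in LT-HSC (Cd68, Cd74 and H2-Aa). By sign, 5 differences were positive and 4 negative. The list summed to 8493 and 9666 in LT-HSC, compared with 2040 and 1834 in ST-HSC. Most of the LT-HSC sums was Cd74 (5474 and 6529, against 420 and 399 in ST-HSC) and H2-Aa (1742 and 2252, against 791 and 480). The B and plasma cell markers were high on the same LT-HSC arrays, and their part in Cd74 and H2-Aa was not tested. The part of macrophages in the Vcam1 values was not tested.

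Icam1 and Icam2, ligands of LFA-1, differed by 0.83 (95% interval 0.13 to 1.53, adjusted p = 0.115) and -0.01 (95% interval -0.61 to 0.59). Cd47, the signal against engulfment by macrophages, depended on the probe set. Its brightest set read 1124 and 1492 in LT-HSC, compared with 1091 and 2021 in ST-HSC and did not pass (-0.40, adjusted p = 0.437). On 2 further sets it was lower in LT-HSC, at 372 and 321 against 1314 and 1447 in ST-HSC (-2.05, SE 0.24, adjusted p = 0.0043) and at 895 and 779 against 1592 and 2152 in ST-HSC (-1.33, SE 0.23, adjusted p = 0.0157). All 5 tested sets of Cd47 were negative, and their mean passed (-1.08, adjusted p = 0.02; range over the alternatives that kept all arrays 0.02 to 0.898).

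Jam3, a junction molecule that also binds leukocyte integrins, had probe sets that disagreed. The one that was brighter on the log scale lay at -0.09 (8.72 and 37.1 in LT-HSC, compared with 19.6 and 31.1 in ST-HSC), whereas the other passed as higher in LT-HSC (47.2 and 45.0 against 6.87 and 8.39 in ST-HSC, 1.52, SE 0.31, adjusted p = 0.0283). Robo4 and Pecam1, endothelial receptors that stem cells share, differed by -0.92 (95% interval -1.81 to -0.04, adjusted p = 0.152) and -0.23 (95% interval -1.01 to 0.55). Neither tetraspanin passed by limma. Both had an unadjusted p under 0.05 (2 of 2), as did 4251 of all 12832 tested genes. Cd9 lay at -1.41 (95% interval -2.35 to -0.47, adjusted p = 0.0634) and Cd82, which has been linked to stem cell quiescence, at 0.76 (95% interval 0.05 to 1.47, adjusted p = 0.142). Cd9 passed with no normalization (-1.55, adjusted p = 0.0394) and once arrays were median-centred (-1.45, adjusted p = 0.0276). It also passed in the fit on 1 averaged value per gene (adjusted p = 0.0338), though it has 1 probe set and its values did not change. Its adjusted p ranged from 0.0276 to 0.0872 over the alternatives that kept all arrays. It read 52.7 and 60.2 in LT-HSC, compared with 145 and 264 in ST-HSC.

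**Figure D3:**
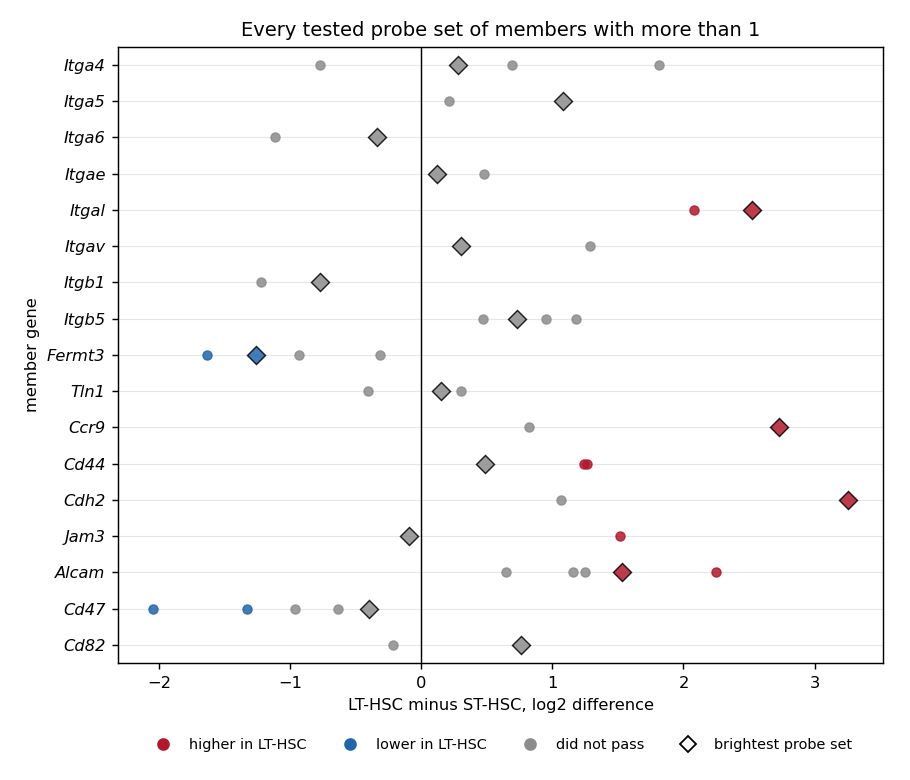
Log2 difference (LT-HSC minus ST-HSC, x axis) of every tested probe set of the 17 members with more than 1 (y axis); diamonds are the brightest set, red passed as higher in LT-HSC, blue as lower and grey did not pass. Probe sets of Itgal, Alcam, Cd44, Fermt3 and Cd47 each lie on 1 side of 0, while those of Jam3 and Itga4 lie on both.

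Over all 62 tested probe sets of the members, 15 passed (24.2%), beside 12.2% of the 27022 tested probe sets. Probe sets of a gene share its RNA and are not independent. Of the 17 members with more than 1 tested set, 13 had all sets on the same side of 0, and Cd82, Itga4, Jam3 and Tln1 did not.

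Most calls rested on having both LT-HSC arrays. Without LT-HSC replicate 1 or LT-HSC replicate 2, only Ccr9 and Cdh2 of the 7 called members still passed, with adjusted p-values of 0.0218 and 0.0319 for Ccr9 and 0.00952 and 0.0145 for Cdh2. Itgal kept its size (2.63 and 2.33) at adjusted p-values of 0.0715 and 0.0913, and Itgb2 lay at 1.57 and 1.52 with 0.216 and 0.182. For Alcam these were 1.53 and 1.50 with adjusted p-values of 0.247 and 0.209. Fermt3 lay at -1.31 and -1.17 with an adjusted p of 0.133 each time, and F11r at -1.40 and -1.45 with 0.25 and 0.198. All 7 passed with either ST-HSC array left out, where Itgb2 lay at 1.17 (ST-HSC replicate 2 left out) and 2.03 (ST-HSC replicate 3 left out). Further members passed with either ST-HSC array left out. Calls over all genes also shifted widely with 1 array left out, so these are not read as results about the members. With 1 array left in a group, its spread is assumed to equal that of the other group. Without an LT-HSC array, a gene's own spread thus came from the ST-HSC pair alone. For Ccr9 and Cdh2 that pair lay below the limit for testing, where the pseudocount narrows the spread. Their passing is therefore not read as greater stability than that of the other called members.

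**Figure D4:**
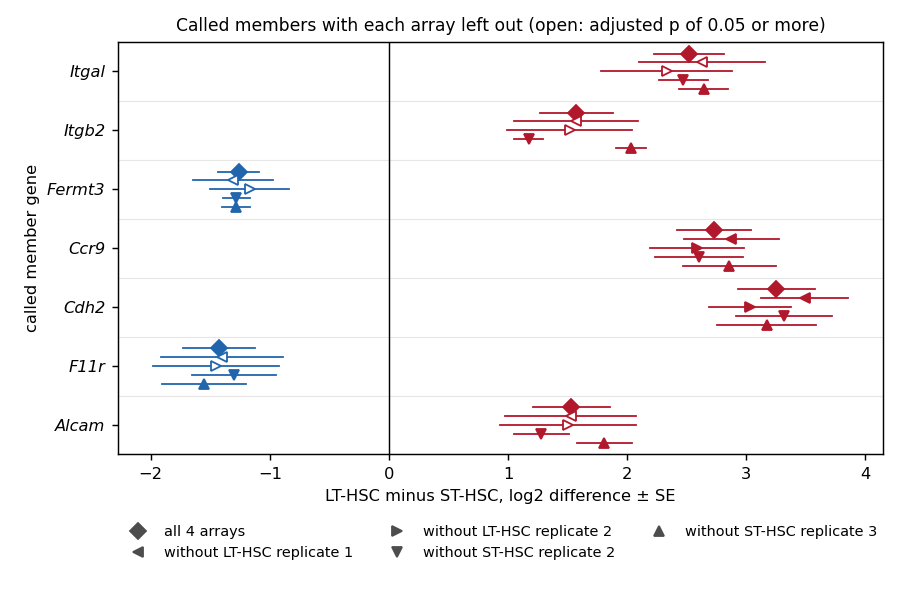
Log2 difference (LT-HSC minus ST-HSC, x axis) ± SE of the 7 called members (y axis) with all 4 arrays and with each array left out; filled symbols passed an adjusted p of 0.05 and open ones did not. No difference changes sign. Ccr9 and Cdh2 are filled throughout, and their ST-HSC readings lay below the limit for testing.

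Promoter sequence is shown for the called members that had 1 RefSeq window each, to set the genes that were higher beside those that were lower. RefSeq windows on build GRCm38.p6 matched 25 of the 39 members. The 250 bases before the annotated start of Alcam and Ccr9 (higher in LT-HSC) and of Fermt3 and F11r (lower) are given 5′ to 3′ on the strand of the gene. Capitals mark matches, on either strand, to TGTGGT for RUNX factors, to AGGAAG for ETS factors, to AGATAA for factors of the GATA family and to GGGCGG for Sp1, and no capitals of different motifs overlap.
Alcam (chr16:52453082-52453331, minus strand): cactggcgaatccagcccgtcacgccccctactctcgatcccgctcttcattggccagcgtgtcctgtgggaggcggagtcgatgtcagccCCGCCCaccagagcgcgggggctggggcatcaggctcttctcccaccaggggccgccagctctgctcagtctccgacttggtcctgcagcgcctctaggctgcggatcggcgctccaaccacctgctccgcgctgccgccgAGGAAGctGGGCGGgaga
Ccr9 (chr9:123766961-123767210, plus strand): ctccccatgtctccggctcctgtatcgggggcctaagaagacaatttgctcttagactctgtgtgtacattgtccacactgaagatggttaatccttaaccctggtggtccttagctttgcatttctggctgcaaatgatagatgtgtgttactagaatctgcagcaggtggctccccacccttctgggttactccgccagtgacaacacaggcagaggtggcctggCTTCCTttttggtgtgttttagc
Fermt3 (chr19:7019470-7019719, minus strand): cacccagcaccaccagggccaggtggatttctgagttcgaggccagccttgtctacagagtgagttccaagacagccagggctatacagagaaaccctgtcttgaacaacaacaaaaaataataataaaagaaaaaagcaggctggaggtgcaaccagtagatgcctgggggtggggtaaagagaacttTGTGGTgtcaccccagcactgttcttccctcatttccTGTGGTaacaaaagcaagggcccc
F11r (chr1:171437311-171437560, plus strand): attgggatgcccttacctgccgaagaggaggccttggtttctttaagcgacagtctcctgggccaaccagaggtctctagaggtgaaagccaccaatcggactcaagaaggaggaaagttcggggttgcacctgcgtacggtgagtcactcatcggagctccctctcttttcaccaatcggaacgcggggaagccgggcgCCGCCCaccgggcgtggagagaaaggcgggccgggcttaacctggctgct

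Fermt3 held the RUNX letters 2 times, from 61 and from 24 bases before the start, and the other 3 windows held none. These letters occur in 14% of 32536 such windows. The ETS letters were found in Alcam and Ccr9, at 18 and 23 bases before the start, and occur in 29.6% of windows. The Sp1 letters, present in 33.0% of windows, were found 2 times in Alcam and 1 time in F11r, and no window shown held the GATA letters (9.97% of windows). The 25 members with a window had 29 windows, of which 4 held RUNX, 12 ETS, 2 GATA and 15 Sp1 letters. A match describes letters only.

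Beyond the members, 96 further genes of adhesion and homing were listed, of which 75 were tested. Of these 13 were higher in LT-HSC and 2 were lower, and 60 did not pass. That is 17.3% and 2.67% of those tested, beside 7.92% and 6.4% of all tested genes. These genes too were listed with earlier results of these data known. The median difference of the further genes was -0.06, beside -0.08 for all tested genes. Homing receptors, selectins and glycan enzymes held 7 of the 13, among 20 tested (35%, beside 7.92% of all tested genes). Cxcr6, a chemokine receptor of T, NK and plasma cells, read 481 and 414 in LT-HSC, compared with 0.483 and 0.311 in ST-HSC, so its difference of 4.82 (SE 0.30, adjusted p = 0.00042) rests on the pseudocount. Cxcr3, a receptor of activated lymphocytes, read 317 and 375 in LT-HSC, compared with 58.3 and 52.9 in ST-HSC (2.41, SE 0.30, adjusted p = 0.00518). Fut4, a fucosyltransferase that helps to build selectin ligands, was 3.94-fold higher (adjusted p = 0.0107). The chemokine receptors Ccr10 (1.84), Ccr6 (2.06) and Cxcr5 (1.25) and the E-selectin ligand gene Glg1 (1.64), named after their values were seen, made up the 7. Lymphoid and plasma cells express these chemokine receptors, the B and plasma cell markers were high on the same arrays, and their part was not tested.

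S1pr3, a sphingosine-1-phosphate receptor, was lower in LT-HSC, at 4.35 and 7.65 against 69.3 and 57.6 in ST-HSC (-1.73, SE 0.30, adjusted p = 0.0158). Of 33 tested genes of integrin activation and focal adhesion 4 were higher and 1 was lower. That is 12.1% and 3.03%, beside 7.92% and 6.4% of all tested genes. Rapgef1, an exchange factor for the small GTPase Rap1 that acts upstream of integrin activation, was 4.03-fold higher (1558 and 1612 in LT-HSC, compared with 438 and 282 in ST-HSC, adjusted p = 0.00817). Actn1, alpha-actinin, which crosslinks actin at adhesions, was 2.95-fold lower (79.5 and 121 in LT-HSC, compared with 381 and 314 in ST-HSC, adjusted p = 0.0228). With the probe sets averaged Actn1 lay at -0.61 and did not pass (adjusted p = 0.115, with a range over the alternatives that kept all arrays of 0.0134 to 0.115). The tetraspanin Cd53 of leukocytes was 3.74-fold higher (adjusted p = 0.004). Among these further genes Cxcr6 passed with any array left out. Its ST-HSC readings too lay below the limit for testing, where the pseudocount narrows the spread. Cxcr3, Fut4, S1pr3, Rapgef1, Actn1 and Cd53 did not pass without LT-HSC replicate 1 or LT-HSC replicate 2. The next largest evidence for lower levels did not pass, for Cd48 (a marker of progenitors, -1.79, adjusted p = 0.0605), Ctnna1 (alpha-catenin, -0.93, adjusted p = 0.064) and Hmmr (a hyaluronan receptor also of the spindle, -1.13, adjusted p = 0.067). Cd48 passed under 3 of 9 alternatives that kept all arrays and Hmmr under 1. None of the 4 tested further integrin chains passed by limma, and 3 had an unadjusted p under 0.05, as did 4251 of all 12832 tested genes. Among the 3 were the platelet pair Itga2b (-1.48, adjusted p = 0.0883) and Itgb3 (1.42, adjusted p = 0.0844), which lay on opposite sides of 0.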

How the data were processed

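The 4 arrays each measured RNA of one sorted sample, 2 of LT-HSC and 2 of ST-HSC, grouped by sample title. For ST-HSC the labels' tissue entry names LT-HSC but gives the CD34+ gate, so titles were followed. The floxed gene is not reported here. The authors deposited a linear intensity per probe set and array. Trizol RNA was amplified in a double round and biotin-labelled, per the labels' protocols. The software that summarised the probes is not given in the sources used here. Array intensities carry no counts, and array medians of 19.1 to 28.3 spanned 0.33 on the log2 scale.

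After 64 control probe sets were left out, the other 45037 were quantile normalized, 16 was added and log2 taken. Probe sets not above the 40th percentile of mean value were left out, which left 27022. LT-HSC minus ST-HSC was fitted with limma 3.58.1 in R 4.3.3 (lmFit, eBayes with an intensity trend; 2 residual and 4.83 prior degrees of freedom), with Benjamini-Hochberg adjustment across every tested probe set. With 2 arrays against 2, an exact permutation test cannot go below a two-sided p of 0.333. The procedure was also run on simulated data that had 1 common spread for all probe sets. That run does not cover pairs of unequal spread, as found here (median SD 0.19 for the LT-HSC pair and 0.28 for the ST-HSC pair). Platform annotation gave 1 symbol to 34945 probe sets. All 39 members matched an Entrez identifier and its symbol in a RefSeq table of GRCm38.p6.

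All members may be named. Readings of every array are given for called members, for partner chains of called integrins and for members with another called probe set. Of the further adhesion genes, the 5 of smallest p in each direction were named. The members and lists were chosen with earlier results of these data known. Alternatives covered normalization, pseudocount, dim filter, trend, probe set choice and each array left out, with the tested probe sets kept. Choosing the brightest probe set by deposited intensity was added after the data were seen.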

Additional observations from a re-analysis of the deposited data

How the results depend on the processing

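Of the 397 recomputed differences of tested members, 342 kept their direction and side of the threshold, 27 newly passed, 11 no longer passed and 17 changed sign, in 9 members, none of them among the 7 called. Of those 17, 12 came with 1 array left out. Jam3 passed after 2 of its sign changes, at 0.68 with a pseudocount of 64 and 1.52 with the brightest probe set chosen by deposited intensity, since each picks its other probe set, and it was 0.71 with probe sets averaged. Icam2 was 0.035 with no normalization and 0.14 with median centring. With 1 array left out, the differences ran from -1.07 to 0.39 for Itga6, -0.18 to 0.43 for Itgae, -0.59 to 0.33 for Itgax, -0.27 to 0.59 for Tln1, -0.12 to 1.37 for Cxcr4, -0.13 to 0.10 for Icam2, -0.45 to 0.0011 for Pecam1, -0.48 to 0.29 for Jam3 and -0.83 to 0.020 for Cd47. With probe sets averaged per gene, 8 members were higher and 5 lower in LT-HSC, 6 further genes were lower and 1276 of all genes were lower. With no normalization 4 members were lower, and with a filter at the 60th percentile, which tests fewer genes, 1 further gene was lower. With 1 array left out, 2 to 11 members were higher and 0 to 7 lower, the members' median was 0.15 to 0.39, 1 to 25 further genes were higher and 0 to 16 lower, and over all genes 264 to 2259 were higher and 16 to 2503 lower. The counts of 0 came without LT-HSC replicate 1 or 2 in limma, where 5 and 3 members and 4 and 4 further genes were lower at an unadjusted p under 0.05. The cause of these shifts was not tested. No paired analysis was possible because the groups share only 1 replicate number. Dim genes and 2 arrays a group limit what can be called.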
